A study of Mus musculus with 18 samples.

Results

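The comparison described here is the difference between 2 responses to ureteral obstruction, that of kidneys from mice lacking TIMP2 and that of kidneys from mice lacking TIMP3. It used 12 of the 18 arrays of the series, 3 in each of 4 groups (TIMP2-/- sham, TIMP2-/- UUO, TIMP3-/- sham and TIMP3-/- UUO), and 22626 probe sets, which are all of the 22690 on the array apart from 64 controls. UUO stands for unilateral ureteral obstruction, in which the right ureter was tied off, and the sham mice had the same surgery without the tie. All mice were C57BL/6, and the RNA came from the kidney of the operated side, taken 3 days after surgery. The labels name the genotypes with no further allele and call the samples biological replicates, so the p-values measure the spread between these 3 kidneys a group. Wild-type (WT) kidneys, also 3 after sham and 3 after UUO, are given beside the knockouts as values without a test. An array is called by its group and replicate number, such as TIMP3-/- UUO 2.

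Each value below is a difference in log2 intensity, computed as the change from sham to UUO in TIMP2-/- minus the same change in TIMP3-/-. A positive difference means that the transcript fell less, or rose more, in TIMP2-/- than in TIMP3-/-. Each carries its standard error (SE) from a limma fit over the 12 arrays. A probe set or gene passed at a Benjamini-Hochberg adjusted p under 0.05 over all 22626 probe sets. Where a gene had several probe sets, the brightest stood for it, which gave 12393 genes.

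TIMPs are secreted inhibitors of matrix metalloproteinases, the enzymes that cut extracellular matrix and cell surface proteins. TIMP2 also takes part in the activation of pro-MMP2 on the cell surface together with MMP14, whereas TIMP3 binds to the matrix and also inhibits ADAM proteases such as the one that releases TNF. Obstruction injures the tubule first. The proximal tubule, which carries most of the kidney's solute transport and depends on oxidative metabolism, loses its transporters and enzymes, while inflammatory cells, myofibroblasts and interstitial matrix increase.

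The targeted genes were checked first. Timp3 had intensities of 3171 to 5668 on the TIMP2-/- sham arrays and 42 to 61 on the TIMP3-/- sham arrays, with 3484 to 4585 and 35 to 41 after UUO, so the genotypes did not overlap. Timp2 on its brightest probe set stood at 652 to 723 in TIMP2-/- sham and 1059 to 1233 in TIMP3-/- sham, and at 998 to 1038 against 3934 to 6062 after UUO. The genotypes did not overlap for Timp2 either, although a signal remained in the mice labelled TIMP2-/-. The parts of the genes that were deleted are not given in the sources used here. After sham only 3 of 12393 genes passed as higher in TIMP2-/- (0.0242%), Timp3, BC018473 and Amdhd1, and 0 (0%) as lower, with 178 and 297 at an unadjusted limma p under 0.05.

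The arrays differed in how far they had moved from sham. On the first principal component, with 75.3% of the variance, the TIMP3-/- UUO arrays stood at 101, 130 and 55.5 and the TIMP2-/- UUO arrays at 42.1, 42 and -1.33, in replicate order, while all sham arrays lay between -80.7 and -32.5. Correlations between replicates ran from 0.954 to 0.979 in TIMP3-/- UUO, the least alike group, and from 0.983 upward in the other 3. TIMP3-/- UUO 2 also stood apart on the second component, at 49.4. As a sign of RNA quality, the 3' minus 5' log2 difference of the Gapdh control probe sets lay between -0.139 and -0.009 on all 18 arrays, and after UUO it was -0.139 to -0.085 in TIMP2-/- and -0.076 to -0.009 in TIMP3-/-, without overlap. That of the beta-actin control probe sets was lower after UUO than after sham without overlap, 0.397 to 0.417 against 0.446 to 0.566 in TIMP2-/- and 0.366 to 0.484 against 0.489 to 0.550 in TIMP3-/-, and it overlapped between the knockouts after UUO. The part of RNA quality in the results was not tested. Kidney identity was clear, with a summed intensity of 34 proximal tubule transporters of 243510 to 270830 on the sham arrays. Alb, the albumin gene of hepatocytes, did not exceed 933 on any of the 12 arrays.

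Obstruction lowered a set of transcripts, several of them proximal tubule transporters and enzymes, further in TIMP3-/- than in TIMP2-/- kidneys. In all, 27 of 22626 probe sets passed for the difference (0.119%), with adjusted p from 0.0173 to 0.0496. Of these, 24 were above 0 (0.106%) and 3 below 0 (0.0133%), and the 3 below 0 all belonged to Timp2 itself. The 27 probe sets named 22 genes, and 21 genes passed by their brightest probe set (0.169%). Among them were organic anion transporters such as Slc22a7, the brush border protease gene Mep1b, and enzymes of amino acid, retinol and sterol metabolism such as Hpd, Rdh16 and Cyp7b1. All 24 probe sets above 0 fell in TIMP3-/-, by log2 values between -6.54 and -1.41, which left 1.08% to 37.5% of the sham level. Of the 24, 22 also passed as lower after UUO in TIMP2-/-, where 15.7% to 66.7% of their sham level was left. The other 2 did not pass there and stood at 80.9% and 123% of the sham level. After UUO, 908 genes were higher in TIMP2-/- than in TIMP3-/- (7.33%) and 296 lower (2.39%). On all 24 probe sets every TIMP2-/- UUO array was above every TIMP3-/- UUO array (18.7% of all probe sets did so), a description only, since the same values chose the 24. After sham 0 of the 24 passed by limma, with 2 at an unadjusted p under 0.05. On 9 of the 24 the sham groups did not overlap, for which the share over all probe sets is not given here. Sham gaps of up to 0.56 in size enter the difference. In bulk tissue, fewer proximal tubule cells and less RNA per cell cannot be told apart.

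The count rests on single arrays and on the estimate of spread. It was 0 without TIMP3-/- UUO 2, 0 when any 1 of the 6 sham arrays was left out, 0 without TIMP3-/- UUO 1 or TIMP2-/- UUO 2, 11 without TIMP2-/- UUO 1, 6 without TIMP2-/- UUO 3, and 1369 without TIMP3-/- UUO 3. It was also 0 when the WT arrays entered the fit. Without TIMP3-/- UUO 2 the largest difference that had passed, that of Slc22a7, was 3.69 in place of 3.87, with an adjusted limma p of 0.067.

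**Figure D1:**
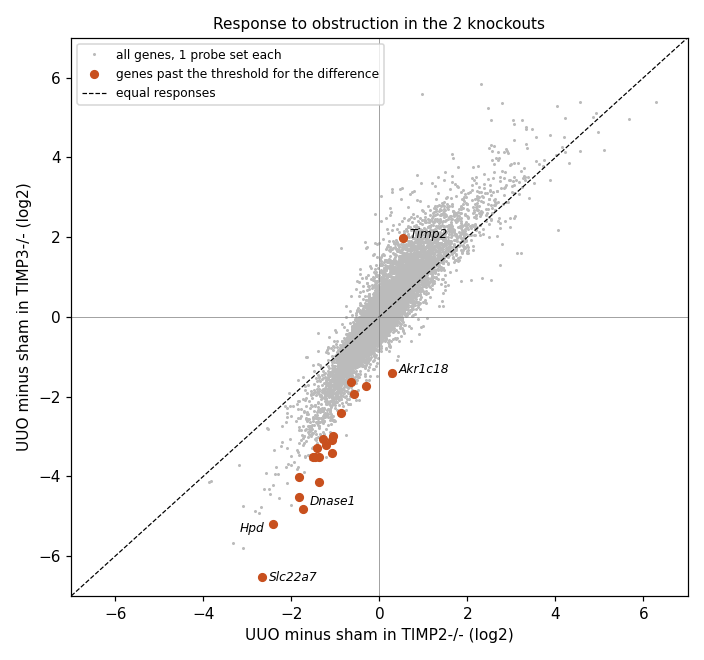
Change in log2 intensity from sham to UUO in TIMP2-/- (x axis) and TIMP3-/- (y axis) kidneys, 1 point for each of 12393 genes on its brightest probe set, with the 21 genes that passed for the difference in orange and equal responses on the dashed line. Of the 21, 20 lie below the line, most of them at the lower left where both responses are falls, and Timp2 lies above it.

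The transcripts that passed belonged to a pattern shared by many genes. They were not simply the largest differences, since spread between arrays also entered. Fuca2 passed at 0.98, while Actg2 at -4.60 and Egf at 2.71 did not. Over the 12393 genes the responses had an SD of 0.73 in TIMP2-/- and 1.07 in TIMP3-/- on the log2 scale, and 77.8% of genes had the larger response in TIMP3-/-. In TIMP2-/-, 1854 genes rose (15%) and 2362 fell (19.1%). In TIMP3-/-, 3081 rose (24.9%) and 4680 fell (37.8%). The split of these calls depends on centring: over probe sets it was 3038 higher and 4124 lower in TIMP2-/- and 5449 and 8122 in TIMP3-/-, but 2351 and 6460, and 4127 and 11188, when each array was centred on its median. Of 3939 genes that passed in both genotypes, 3938 moved in the same direction and 3272 moved further in TIMP3-/-. The 1 gene that went in opposite directions was Fam136a, named here after its values were seen, at 0.53 in TIMP2-/- and -0.35 in TIMP3-/-. Centring each array also shifted the median difference of all genes from 0.07 to 0.15, less than 0.1. The median response shifted by more, from -0.12 to -0.27 in TIMP2-/- and from -0.19 to -0.42 in TIMP3-/-. Rises and falls are counted here against a change of 0, while the median response was below 0.

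Among the genes that passed, organic anion transporters of the SLC22 family held the largest difference and the smallest p. Slc22a7, which encodes the organic anion transporter OAT2, had intensities of 8688, 9696 and 9376 on the TIMP2-/- sham arrays and 5890, 7213 and 6855 on the TIMP3-/- sham arrays. After UUO it stood at 1005, 1080 and 2823 in TIMP2-/- and at 75, 56 and 86 in TIMP3-/-. The obstructed TIMP3-/- kidneys were thus near the bottom of the array's range, and the groups did not overlap. Its change was -2.67 in TIMP2-/- and -6.54 in TIMP3-/-, so that 15.7% and 1.08% of the sham level was left, and the difference was 3.87 ± 0.46 (SE, 3 arrays a group, limma adjusted p = 0.0173). Slc22a19, another organic anion transporter of the family, went from 2875, 3021 and 2023 to 811, 1075 and 1141 in TIMP2-/- and from 2893, 2619 and 2826 to 107, 155 and 232 in TIMP3-/-. Its sham values overlapped and its UUO values did not, with a difference of 2.77 ± 0.36 (adjusted p = 0.0317). Slc22a30, from the same gene cluster, went from 3360, 3483 and 3064 to 1058, 1221 and 1349 in TIMP2-/- and from 4695, 3608 and 4160 to 355, 312 and 433 in TIMP3-/-. Its TIMP3-/- sham arrays were slightly above the TIMP2-/- ones, the reverse of the order after UUO. Its difference of 2.05 ± 0.22 had the smallest p in the comparison (adjusted p = 0.0173). Both lie on chromosome 19, with 4 coding genes between them in RefSeq.

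The brush border is the microvillous face of the proximal tubule cell, and in the list of endocytosis and brush border genes 2 passed. Dnase1 encodes the secreted deoxyribonuclease I, which the kidney makes in quantity. It went from 25023, 26166 and 21850 to 5800, 5753 and 11707 in TIMP2-/- and from 23519, 23900 and 24907 to 805, 524 and 1470 in TIMP3-/-. The sham groups were alike, while after UUO every TIMP2-/- array was several times brighter, with 30.1% of the sham level left against 3.54% (difference 3.09 ± 0.48, adjusted p = 0.0483). Mep1b encodes the beta subunit of meprin, a metalloproteinase of the brush border membrane. It went from 3947, 4989 and 3740 to 970, 1131 and 1484 in TIMP2-/- and from 4654, 4013 and 4414 to 137, 166 and 294 in TIMP3-/-. Its sham groups overlapped and its UUO groups did not, with a difference of 2.70 ± 0.36 (adjusted p = 0.0317).

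**Figure D2:**
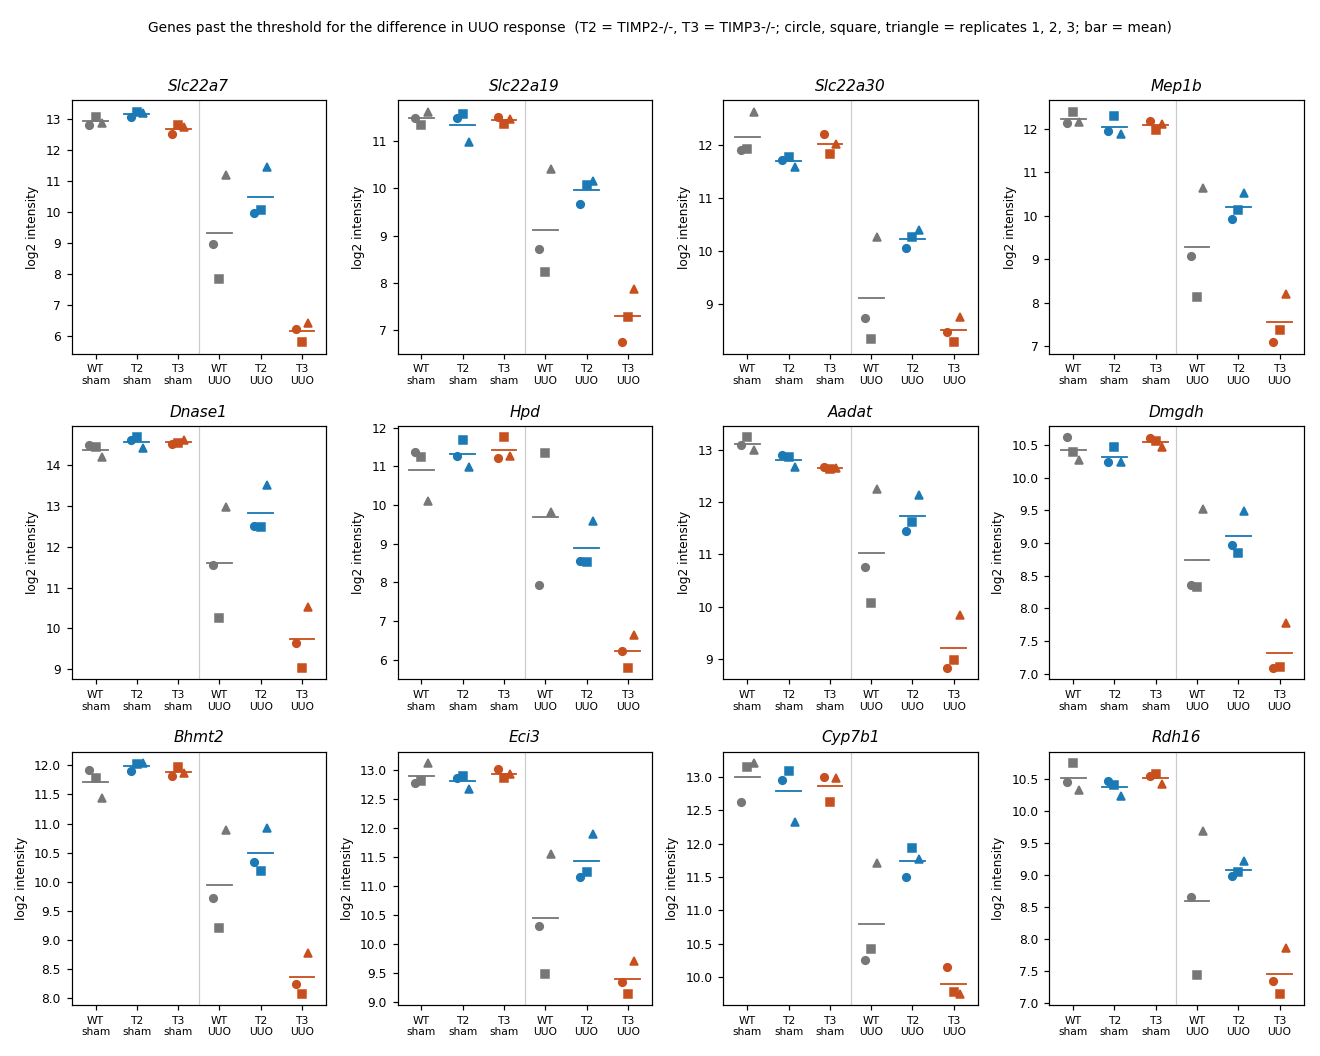
Log2 intensity of 12 genes that passed for the difference, 1 point an array, for WT, TIMP2-/- and TIMP3-/- kidneys after sham (left of each panel) and UUO (right), with a bar at each group mean. After UUO the 3 TIMP2-/- arrays lie above the 3 TIMP3-/- arrays in every panel. The sham groups of the 2 knockouts do not overlap for Slc22a7, Slc22a30 and Aadat.

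Enzymes of amino acid, pyrimidine and choline breakdown formed the next group. Hpd encodes 4-hydroxyphenylpyruvate dioxygenase of tyrosine breakdown. It went from 2462, 3292 and 2022 to 372, 368 and 773 in TIMP2-/- and from 2384, 3444 and 2471 to 74, 55 and 100 in TIMP3-/- (difference 2.77 ± 0.45, adjusted p = 0.0483). Aadat, an aminotransferase that acts on kynurenine and 2-aminoadipate, went from 7610, 7465 and 6506 to 2792, 3156 and 4468 in TIMP2-/- and from 6489, 6318 and 6405 to 457, 508 and 919 in TIMP3-/- (2.35 ± 0.35, adjusted p = 0.0471). Both kept a clear gap between the genotypes after UUO, with 47.4% of the sham level of Aadat left in TIMP2-/- and 9.33% in TIMP3-/-. Dpys, the dihydropyrimidinase of pyrimidine breakdown, went from 439 to 748 down to 130 to 244 in TIMP2-/- and from 712 to 940 down to 47 to 61 in TIMP3-/- (2.19 ± 0.35, adjusted p = 0.0496). The TIMP3-/- UUO mean of Dpys was near background, which limits how large a fall could be measured. Of its other probe sets, 1 differed by 1.97 (adjusted p = 0.0966) and 1 by 0.36.

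Dmgdh and Bhmt2 act in the same stretch of metabolism, Dmgdh as the mitochondrial dehydrogenase that demethylates dimethylglycine and Bhmt2 as a methyltransferase that makes methionine from homocysteine. Dmgdh went from 1206, 1421 and 1212 to 502, 460 and 720 in TIMP2-/- and from 1553, 1504 and 1417 to 136, 138 and 218 in TIMP3-/-. Bhmt2 went from 3836, 4178 and 4211 to 1293, 1170 and 1953 and from 3610, 4020 and 3726 to 303, 270 and 438. The groups of both genes were separate after UUO, and their differences were nearly equal, 2.01 ± 0.29 and 2.02 ± 0.30 (adjusted p = 0.0471 for both). The genes are also neighbours that start back to back on chromosome 13, with 0 coding genes between them. The bases between their starts, 133 in all, are shown because the pair moved together (RefSeq, assembly GRCm38.p6, chr13:93674303-93674435, plus strand, which is the strand of Dmgdh):

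Dmgdh to Bhmt2: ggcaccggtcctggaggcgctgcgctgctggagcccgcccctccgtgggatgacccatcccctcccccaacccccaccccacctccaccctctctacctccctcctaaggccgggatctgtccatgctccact

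Promoters of the genes that passed were searched for 4 motifs on both strands, in windows from 250 bases before to 50 after each RefSeq start. Windows were on hand for 16 of the 21 genes, 19 windows in all. The HNF4 motif, searched as CAAAGTCCA, was in the window of 1 gene, Aadat, and in 0.475% of all 32851 windows. The AP-1 motif, TGANTCA, was in those of 2 genes, Hpd and Ghr, and in 7.81% of all windows. The HNF1 motif was in 0 of the 16 (0.122% of all windows) and the SRF CArG box in 0 (1.63%). A match describes these letters only. The 250 bases before the start are shown for Aadat and Hpd because they hold a match, in capitals (HNF4, read on the other strand, in Aadat at chr8:60505874-60506123, plus strand, and AP-1 in Hpd at chr5:123182724-123182973, minus strand):

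Aadat: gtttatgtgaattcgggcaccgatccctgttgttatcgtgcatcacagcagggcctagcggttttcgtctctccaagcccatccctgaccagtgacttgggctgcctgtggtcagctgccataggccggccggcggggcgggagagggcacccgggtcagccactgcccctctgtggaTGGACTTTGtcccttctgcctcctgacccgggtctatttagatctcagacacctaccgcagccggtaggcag

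Hpd: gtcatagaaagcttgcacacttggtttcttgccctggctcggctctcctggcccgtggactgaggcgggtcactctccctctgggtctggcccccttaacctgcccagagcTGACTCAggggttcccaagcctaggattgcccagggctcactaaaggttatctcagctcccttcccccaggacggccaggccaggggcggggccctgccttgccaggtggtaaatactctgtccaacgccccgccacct

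Enzymes of lipid, retinol and sterol metabolism and of conjugation made up the rest of the 15 largest positive differences among genes that passed. Eci3, an enoyl-CoA isomerase of fatty acid oxidation, went from 7421, 7610 and 6515 to 2266, 2414 and 3811 in TIMP2-/- and from 8203, 7421 and 7736 to 649, 567 and 839 in TIMP3-/- (2.14 ± 0.28, adjusted p = 0.0317). The sham groups of Eci3 overlapped, and 38.4% of the sham level was left in TIMP2-/- against 8.69% in TIMP3-/-. Cyp7b1, an oxysterol 7-alpha-hydroxylase, went from 7924, 8731 and 5103 to 2879, 3930 and 3472 in TIMP2-/- and from 8161, 6313 and 8083 to 1134, 873 and 861 in TIMP3-/-. It differed by 1.92 ± 0.30 on its brightest probe set (adjusted p = 0.0483) and by 1.96 on its other one (adjusted p = 0.0473). Rdh16 and Rdh16f2 encode retinol dehydrogenases of the short-chain family and lie close together, with 1 coding gene between them on chromosome 10. Rdh16 went from 1427, 1358 and 1209 to 510, 528 and 600 in TIMP2-/- and from 1497, 1527 and 1370 to 162, 142 and 233 in TIMP3-/- (1.78 ± 0.24, adjusted p = 0.0317). Rdh16f2 went from 3353, 3126 and 3122 to 1282, 1309 and 2127 and from 3342, 4321 and 3477 to 373, 369 and 599 (2.02 ± 0.32, adjusted p = 0.0483). As paralogs they may share probe sequence, which was not checked. Ugt3a1, a glycosyltransferase that conjugates small molecules, fell to 1539 to 2687 in TIMP2-/- and 616 to 842 in TIMP3-/-, and both of its probe sets passed (1.88 ± 0.27 and 1.90 ± 0.22).

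A further 6 genes that passed lie outside the rule for named genes and were chosen after their values were seen. Akr1c18, a 20-alpha-hydroxysteroid dehydrogenase, is the exception in pattern: its response was 0.30 in TIMP2-/- (adjusted p = 0.247) and -1.41 in TIMP3-/-, where it fell from 595 to 913 down to 251 to 280. Vnn1, the pantetheinase of the brush border, likewise fell in TIMP3-/- (-1.75), while its response of -0.31 in TIMP2-/- did not pass. Ghr, the growth hormone receptor, fell by 0.58 in TIMP2-/- and by 1.94 in TIMP3-/- on the log2 scale, but its difference of 1.35 became 0.68 (adjusted p = 0.573) as the mean of its 3 probe sets. Adtrp, a hydrolase of fatty acid esters of hydroxy fatty acids, fell by 0.86 and 2.42. Fuca2, an alpha-fucosidase, had the smallest difference that passed, 0.98 ± 0.15. Clec2h, a C-type lectin, passed on 1 of its probe sets (2.89 ± 0.44), which was near background in TIMP3-/- UUO at 37.9 to 76.5, while its others differed by 2.71 and 2.13 (adjusted p = 0.0627 and 0.113).

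The probe sets just outside the threshold included more metabolic genes. Glyat, a glycine conjugating enzyme (1.36 on this probe set and 1.08 on its brightest, adjusted p = 0.111), Azgp1 (2.19), Kmo of the kynurenine pathway (1.48), Egf (2.71) and Gpx6 (2.09) had adjusted p-values from 0.0505 to 0.0575 on these probe sets, next to Dpys, Hpd and Rdh16f2 just inside it. Rap2b, a small GTPase, was the nearest below 0 outside it (-1.16, adjusted p = 0.0505, and -1.08 on its brightest probe set).

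The lists of tubule genes leaned as a whole to the side of a smaller fall in TIMP2-/-. Over all 12393 genes the median difference was 0.07, with 7179 genes above 0 (57.9%) and 5214 below. At an unadjusted p under 0.05 there were 1081 genes above 0 (8.72%) and 399 below (3.22%). These counts describe the lists and are not calls. The lists were chosen with earlier results of these data known and include genes that passed, so the counts give no separate support. Of 34 proximal transporters measured, 3 passed and 29 were above 0 at an unadjusted p under 0.05, with a median of 1.23. The glucose transporter Slc2a2, for example, differed by 1.12 ± 0.22 (adjusted p = 0.0993). Of 17 endocytosis and brush border genes, 2 passed and 11 were above 0, with a median of 0.97. Among them were the uptake receptors Cubn (1.51 ± 0.29) and Lrp2, which encodes megalin (1.28 ± 0.27). Of 37 genes of amino acid breakdown, 4 passed and 28 were above 0, with a median of 1.17. Of 31 cytochrome P450 and conjugation genes, 1 passed and 19 were above 0, with a median of 0.71. Those with values near the threshold included the carboxylesterases Ces1d (1.99 ± 0.34, adjusted p = 0.0627) and Ces1f (1.64 ± 0.29, adjusted p = 0.0736). In these 4 lists 0 members were below 0 at that p. Without TIMP3-/- UUO 2, 812 genes were above 0 (6.55%) and 470 below (3.79%), and the lists had 29, 9, 27 and 17 members above 0 in the same order.

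Lists of energy metabolism and tubule regulators also had positive medians, and no member of them passed. Of 8 gluconeogenesis genes, 6 were above 0 at an unadjusted p under 0.05, with a median of 1.23. Among them, G6pc, the glucose-6-phosphatase that releases glucose, went from 7157 to 8113 down to 1047 to 3393 in TIMP2-/- and from 7313 to 9888 down to 377 to 616 in TIMP3-/- (2.08 ± 0.48). Fbp1, fructose-bisphosphatase, differed by 1.37 ± 0.26, Pcx, pyruvate carboxylase, by 1.30 ± 0.29, and Pck1, which makes phosphoenolpyruvate, by 1.15 ± 0.25. Of 24 genes of fatty acid oxidation, all had a positive difference (57.9% of all genes did) and 17 were above 0 at that p, with a median of 0.60. The acyl-CoA synthetase Acsm1 (1.83 ± 0.37) and the peroxisomal enzyme Ehhadh (1.05 ± 0.20) were examples. Of 30 respiratory chain and ATP synthase genes, all had a positive difference, from 0.20 to 0.64, and 17 were above 0 at that p, or 9 without TIMP3-/- UUO 2. Of 17 tubule transcription factors and nuclear receptors, 3 were, Ppara, which drives fatty acid oxidation genes (1.18 ± 0.31), and Hnf4a, a master regulator of the proximal tubule (0.97 ± 0.27), among them. Hnf4a stood at 5355 to 7314 in TIMP2-/- UUO and 2350 to 4225 in TIMP3-/- UUO, without overlap, from 10699 to 11486 in all 6 sham kidneys.

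Lists for the segments past the proximal tubule had smaller medians than the lists of proximal transporters and of endocytosis and brush border genes. The respiratory chain list (0.45) and the list of tubule transcription factors and nuclear receptors (0.43) had smaller medians still. Of 21 loop and distal tubule genes, 7 were above 0 at an unadjusted p under 0.05 (median 0.54), and of 18 collecting duct genes, 5 (median 0.51), with 0 below and none passing in either list. The collecting duct median was 0.27 without TIMP3-/- UUO 1, 0.33 without TIMP2-/- UUO 3 and 0.85 without TIMP3-/- UUO 3. Egf, the growth factor of the distal tubule, was the largest. It went from 13666, 14762 and 13206 to 1156, 1261 and 2951 in TIMP2-/- and from 14921, 13382 and 13465 to 179, 248 and 348 in TIMP3-/-. The sham groups overlapped and the UUO groups did not, and the difference of 2.71 ± 0.45 missed the threshold (adjusted p = 0.0558). Avpr2, the vasopressin receptor of the collecting duct, had a difference of 1.58 ± 0.54 and Kl, the gene of klotho, of 1.16 ± 0.34.

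**Figure D3:**
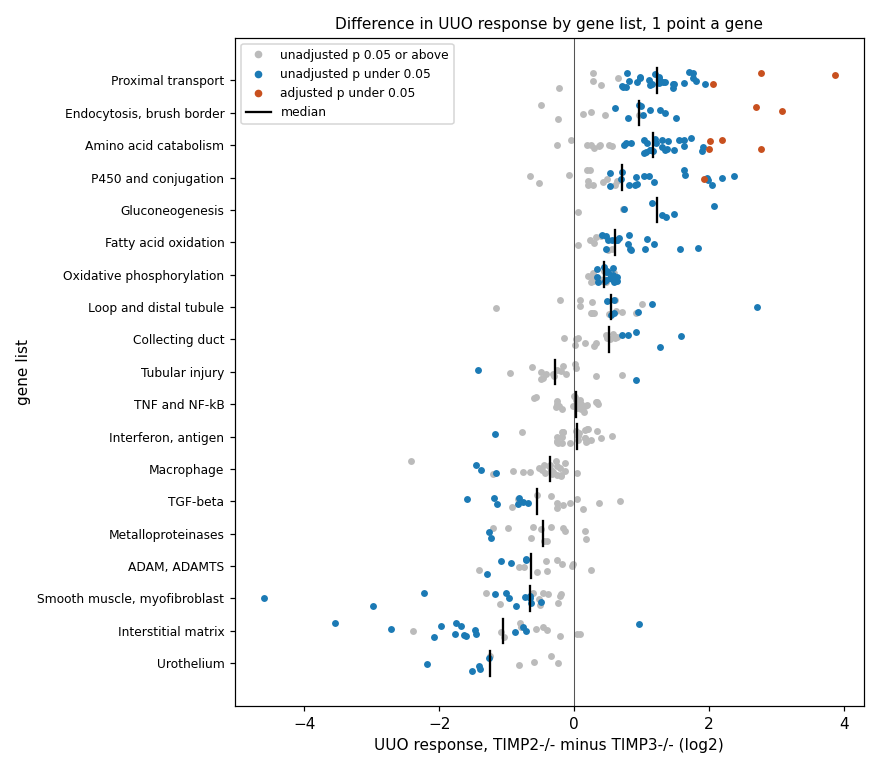
Difference in UUO response (TIMP2-/- minus TIMP3-/-, log2) for the members of 19 gene lists, 1 point a gene, coloured by p, with a bar at each list's median. Tubule transport and metabolism lists lie to the right of 0, with medians up to 1.23, the TNF and interferon lists around 0, the macrophage list at -0.36, and matrix, smooth muscle and urothelium lists to the left, with a median of -1.25 for urothelium.

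Matrix and smooth muscle genes lay mostly on the other side, with higher values for the rise in TIMP3-/-, and none of them passed for the difference. Of 26 interstitial matrix genes, 22 rose in TIMP2-/- and 26 in TIMP3-/- (15% and 24.9% of all genes did). At an unadjusted p under 0.05, 14 of the differences were below 0 against 1 above (10 below without TIMP3-/- UUO 2). The median was -1.06, or -0.69 without TIMP3-/- UUO 1. Col12a1, a fibril-associated collagen, went from 156 to 212 up to 251 to 333 in TIMP2-/- and from 162 to 198 up to 604 to 1429 in TIMP3-/- (-1.63 ± 0.38, adjusted p = 0.125). Col5a2 differed by -1.76 ± 0.48 and Col8a1 by -1.60 ± 0.47. Col1a1, the main fibrillar collagen, rose in both genotypes, by 4.21 and 4.99, and its difference was -0.78 ± 0.49 (adjusted p = 0.581). Mgp, the matrix Gla protein, an inhibitor of calcification, was the member above 0 (0.96 ± 0.25). It reached 26499 to 27683 in TIMP2-/- UUO and 25541 to 31128 in TIMP3-/- UUO, so that the UUO levels overlapped and the sham levels, 3093 to 5341 against 7614 to 8344, did not. Lox, the lysyl oxidase that crosslinks collagen, reached 476, 491 and 307 in TIMP2-/- UUO and 4402, 4912 and 653 in TIMP3-/- UUO, with TIMP3-/- UUO 3 far below the other 2 arrays of its group (-2.76 ± 0.84, adjusted p = 0.243).

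Of 22 smooth muscle and myofibroblast genes, all had a negative difference, as did 5214 of all 12393 genes. At an unadjusted p under 0.05, 12 were below 0, and the median was -0.65. Actg2, the smooth muscle gamma actin, had the largest negative difference of all genes, -4.60 ± 1.02 (adjusted p = 0.111). It stood at 90 to 193 on all 6 sham arrays, at 155, 222 and 851 in TIMP2-/- UUO and at 11854, 6668 and 1409 in TIMP3-/- UUO. The UUO groups did not overlap, but the array spread within each was wide. Cnn1, calponin (-2.99 ± 0.91), and Myh11, smooth muscle myosin (-2.22 ± 0.65), rose in TIMP3-/- and had responses of 0.04 and -0.34 in TIMP2-/-. Acta2, smooth muscle alpha actin and the usual myofibroblast marker, rose by 1.74 in TIMP2-/- and 2.60 in TIMP3-/- (difference -0.87 ± 0.35, adjusted p = 0.393). In the TGF-beta list of 19 genes, 7 were below 0 at that p, with a median of -0.55 (-0.32 without TIMP3-/- UUO 1). Tgfb1 itself differed by -0.07 ± 0.36 and its target Ccn2, connective tissue growth factor, by -0.76 ± 0.22.

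Markers of urothelium, the lining of the renal pelvis, moved with these genes. All 10 measured had a negative difference (5214 of all 12393 genes did), with a median of -1.25. Their summed intensity was 1477 to 2435 on the 6 sham arrays, 4522 to 6948 in TIMP2-/- UUO and 8666 to 15637 in TIMP3-/- UUO. Krt14, a basal keratin, differed by -2.18 ± 0.64. The summed intensity of the smooth muscle list was 50977 to 54646 in TIMP2-/- UUO and 80298 to 142900 in TIMP3-/- UUO. Of adipocyte markers, Adipoq stood at 7461, 5281 and 349 on TIMP3-/- UUO 1, 2 and 3 and at 1652 to 2728 in TIMP2-/- UUO. The part of pelvic wall, fat or other tissue in the differences of matrix and tubule genes was not tested.

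**Figure D4:**
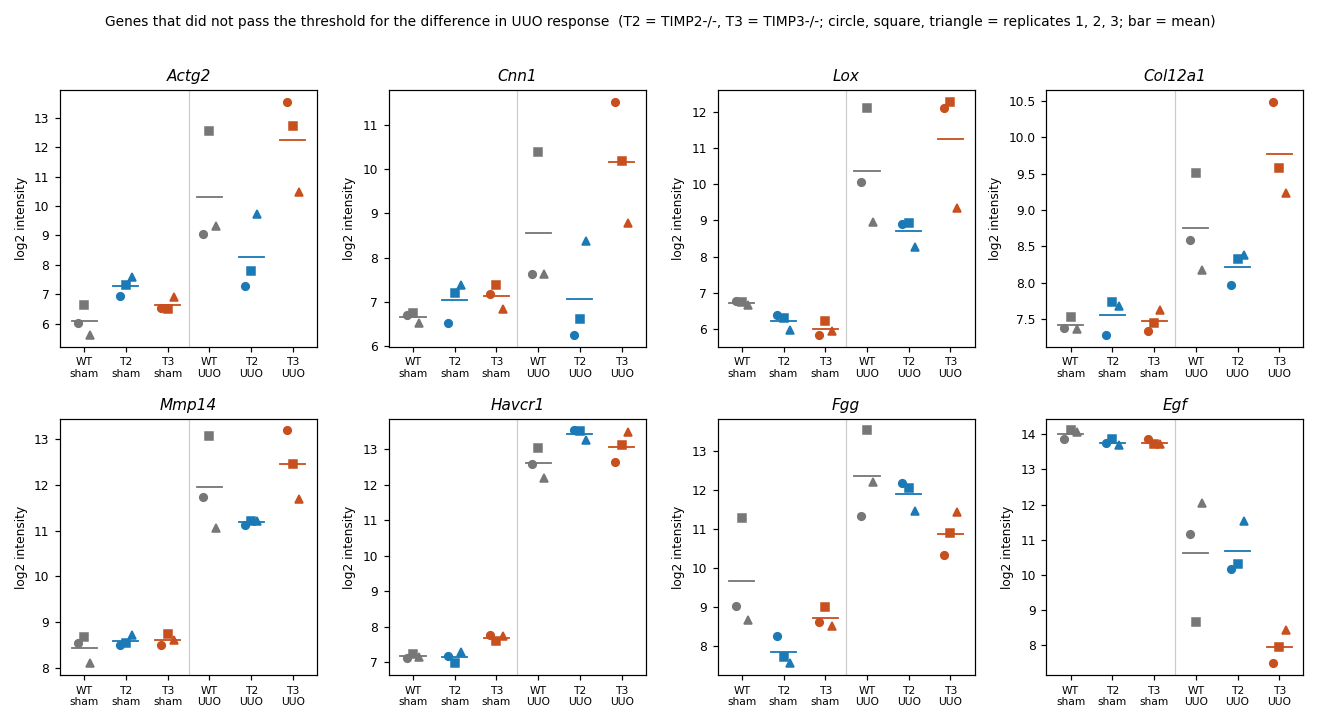
Log2 intensity of 8 genes that did not pass for the difference, 1 point an array, in the same layout of genotypes and operations, with a bar at each group mean. Actg2, Cnn1, Lox, Col12a1 and Mmp14 have their highest mean in TIMP3-/- UUO, with wide spread, Havcr1 reaches similar levels in both knockouts, and Fgg and Egf are higher in TIMP2-/- UUO than in TIMP3-/- UUO.

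In the lists of TIMP family genes, matrix metalloproteinases and ADAM and ADAMTS proteases, Timp2 was the 1 gene that passed. Timp2 differed by -1.43 ± 0.23 on its brightest probe set (adjusted p = 0.0483), and 3 of its 6 probe sets passed, as its transcript rose by 1.97 in TIMP3-/- kidneys and by 0.54 in the kidneys where it was targeted. Timp3 differed by 0.31 ± 0.30 on its brightest probe set and by -0.91, 0.51 and 0.10 on its others. None of them passed, and all were near background in TIMP3-/-. Timp1, the injury-induced inhibitor, rose by 4.91 in TIMP2-/- and 5.12 in TIMP3-/- and differed by -0.21 ± 0.60. Mmp14, the membrane-bound activator of MMP2, rose from 362 to 421 up to 2242 to 2370 in TIMP2-/- and from 360 to 429 up to 9338, 5654 and 3323 in TIMP3-/-. The UUO groups did not overlap, with the spread almost all in TIMP3-/-, and the difference was -1.23 ± 0.39 (adjusted p = 0.274). Mmp2 gave similar values (-1.26 ± 0.43, adjusted p = 0.308). Mmp9 differed by -1.20 ± 1.00, with 1319 on TIMP3-/- UUO 1 and no more than 221 on the other UUO arrays of the knockouts. Of 14 metalloproteinases, 2 were below 0 at an unadjusted p under 0.05 and 0 above. Of 16 ADAM and ADAMTS proteases, 5 were below and 0 above. Tnf differed by 0.32 ± 0.20.

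Injury and inflammation markers rose in both genotypes with no difference that passed. All 18 tubular injury genes rose in each knockout, against 15% of all genes in TIMP2-/- and 24.9% in TIMP3-/-. Havcr1, which encodes the injury marker KIM-1, rose by 6.29 in TIMP2-/- and 5.38 in TIMP3-/-, and stood at 9817 to 11806 and at 6327 to 11423 after UUO, with overlap (difference 0.91 ± 0.27, adjusted p = 0.228). Lcn2, the gene of NGAL, rose by 5.68 and 4.97 (0.71 ± 0.48). Of 27 macrophage and monocyte genes, 23 rose in TIMP2-/- and 26 in TIMP3-/-. Of the 27, 26 had a negative difference (5214 of all 12393 genes did), 3 of them at an unadjusted p under 0.05. Their median was -0.36, but -0.14 without TIMP3-/- UUO 1 and -0.23 without TIMP3-/- sham 1. After UUO 6 of the 27 were lower in TIMP2-/- than in TIMP3-/- (2.39% of all genes were). Of 30 chemokines and cytokines, 22 had a negative difference, 4 of them at that p, with a median of -0.33 (-0.07 without TIMP3-/- UUO 1 and -0.58 without TIMP3-/- UUO 3). The TNF and NF-kappa-B list (22 genes, median 0.03) and the interferon and antigen presentation list (28 genes, median 0.04) were centred near 0, with 0 and 1 members below 0 and 0 above at that p. TIMP3-/- UUO 1 stood apart in the summed intensity of 16 lymphocyte genes, 11886 there against 2457 to 2957 on the other UUO arrays of the knockouts. Most of that sum came from 1 gene, Ighm, at 9932 there and 809 to 1341 on those other arrays.

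A few secreted proteins had higher values for the rise in TIMP2-/-, and none passed for the difference. The fibrinogen chains Fgg, Fga and Fgb rose by 4.06, 2.54 and 3.21 in TIMP2-/- and by 2.17, 0.91 and 1.59 in TIMP3-/-. Fgg reached 4604, 4270 and 2801 in TIMP2-/- UUO and 1274, 1897 and 2745 in TIMP3-/- UUO, so that the closest arrays of the groups nearly met. The differences of 1.89 ± 0.41, 1.63 ± 0.38 and 1.62 ± 0.43 did not pass (adjusted p = 0.111, 0.132 and 0.173), nor did that of Cfi, complement factor I (1.51 ± 0.31, adjusted p = 0.101). Among hepatocyte markers, the summed intensity was 4642 to 9619 in TIMP2-/- UUO and 2595 to 2697 in TIMP3-/- UUO, below the 16162 to 22282 of the sham arrays; several of these genes are also expressed in kidney.

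WT values for the same genes are given as description. Of the 24 probe sets above 0, 22 had a WT response between the 2 knockout responses, against 23.5% of all probe sets, but the 24 were chosen for a wide gap between the knockouts. Slc22a7, for example, went from 7289 to 8684 down to 502, 233 and 2370 in WT, a change of -3.59. The WT UUO arrays were widely spread, and WT UUO 2 carried hepatocyte transcripts, with an Alb intensity of 28106. Hpd, which liver also expresses, stood at 2616 on that array and at 243 and 899 on the other WT UUO arrays. Within groups, 1 array was often on the same side: TIMP2-/- UUO 3 was the highest of its group on 21 of the 24 probe sets, TIMP3-/- UUO 3 on 22 and WT UUO 3 on 23. For 3 arrays against 3, such as TIMP2-/- against TIMP3-/- after UUO, the smallest p that an exact 2-sided permutation test could reach was 0.1. That limit does not apply to the difference of responses over 4 groups, for which none was worked out. The p-values given here draw on the spread that limma pools over probe sets.

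**Figure D5:**
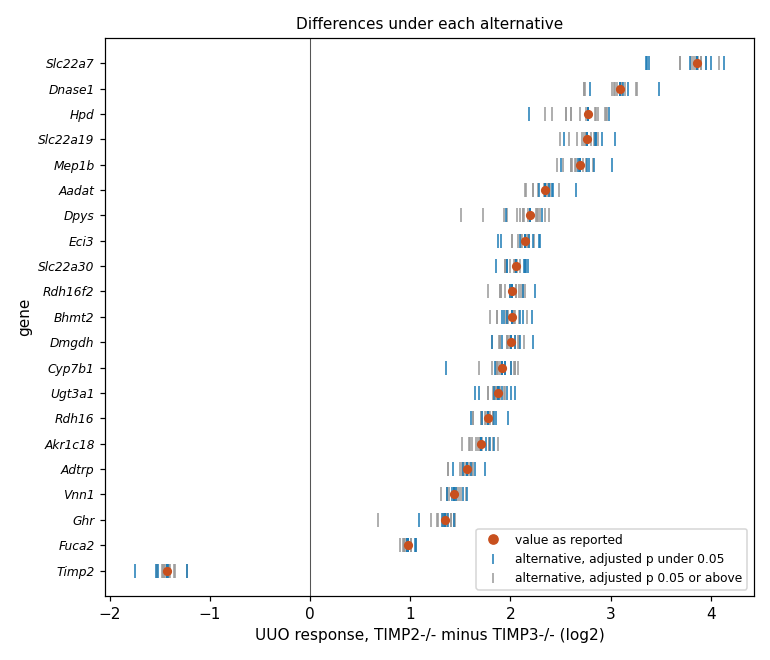
Difference in UUO response (log2) of the 21 genes that passed, with the reported value as an orange point and each processing alternative, including those that leave out 1 array, as a tick, blue where its adjusted p was under 0.05 and grey where not. The sign of each gene was the same under every alternative that was run, while the adjusted p of each gene was above the threshold under some of them.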

How the data were processed

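RNA from 18 kidneys was hybridised to Affymetrix Mouse430A_2 arrays, per the labels' protocols. The authors deposited 1 intensity per probe set and array on a linear scale; RMA (background correction, quantile normalization and probe summary) is named by the submitters' processing notes, and its version and the step back from log2 are not given in the sources used here. Array medians were 201.2 to 247.4. Quantile normalization hides a shift of all transcripts in 1 direction, and the number of arrays limits the precision.

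The deposited intensities were converted to log2 with no pseudocount. A model with 4 group means was fitted to 12 arrays with limma 3.58.1 in R 4.3.3 (8 residual and 3.38 prior degrees of freedom, median residual SD 0.218). The code was run on simulated data with independent noise of the same spread in each group. That setting lacks the deviations that the real arrays share, so it cannot vouch for the counts given here. P-values were adjusted by Benjamini-Hochberg over 22626 probe sets within each contrast. WT arrays were left out of the fit because 1 of them carried hepatocyte transcripts. Of the probe sets, 20380 had 1 gene symbol in the platform annotation, 691 several and 1555 none; of 12393 genes, 12369 matched the RefSeq table of GRCm38.p6.

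Genes were named by rule: 13 chosen genes, the 15 largest differences in each direction among brightest probe sets that passed, and up to 4 members of each described list with the smallest p. The 42 lists held 859 genes, of which 766 were measured. The members, lists and rules were chosen with earlier results of these data known, and no list was tested as a set. Replicate numbers were not taken to pair the arrays, as the labels state no pairing and same-numbered arrays of different groups had correlations of their deviations between -0.548 and 0.67, above 0.1 in 12 of 18 pairs (14 of 36 for unlike numbers). All 6 pairs of replicate 3 were positive, from 0.489 to 0.67. A further 24 alternatives covered the arrays in the fit, leaving out each array, normalization, dim probe sets, probe set choice and the estimate of spread.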

Additional observations from a re-analysis of the deposited data

Results flagged for a closer look

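A total of 27 probe sets stood out because the response to obstruction differed between TIMP2-/- and TIMP3-/- kidneys by a test of that difference itself (limma, adjusted p under 0.05). They are the 24 probe sets with a positive difference, 23 of them with a smaller fall in TIMP2-/-, and the 3 of Timp2.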

How the results depend on the processing

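The 27 probe sets that passed for the difference became 0 with all 18 arrays in the fit and 0 when WT UUO 2, WT sham 3 and TIMP3-/- UUO 2 were left out of that fit (limma, with 2266 and 2320 at an unadjusted p under 0.05), 7089 with array weights, and 8 without suffixed probe sets. Leaving out 1 array gave 0 to 1369, with 1732 to 3083 at an unadjusted p under 0.05 where the count was 0. Other alternatives gave 22 to 39. With the replicate number as a block it was 7, though not every same-numbered pair deviates together. All 21 genes that passed kept their direction in each alternative run. For the parts of the difference, the 7162 probe sets for UUO against sham in TIMP2-/- became 4339 with 1 probe set a gene, 4194 with the mean of a gene's probe sets, 4519 without suffixed probe sets and 16750 with array weights (3719 to 8944 leaving out 1 array), and the 13571 in TIMP3-/- became 7817 and 7806 with 1 value a gene (9884 to 14574). Between genotypes after sham, 17 became 3 and 4 with 1 value a gene, 26 without the 3 arrays, 592 with array weights and 9 without suffixed probe sets (7 to 25). After UUO, 2027 became 1338 and 1345, 975, 9809 and 1251 in the same order, and 3224 with the replicate block (501 to 5819). Fewer features were tested with 1 value a gene or without suffixed probe sets; for array weights and the arrays in the fit the cause was not tested. List medians kept their sign in every alternative run except for glycolysis, TIMP family, lymphocyte, neutrophil, TNF, interferon, complement, cell cycle, immediate early, apoptosis and adrenal genes. Their sizes were less stable, and the metalloproteinase median of -0.47, for example, was -0.07 without TIMP3-/- UUO 1 and -0.93 without TIMP3-/- UUO 3. Probe sets near background, such as those of Dpys and Clec2h in TIMP3-/- UUO, limit how large a fall can be measured. Those of Slc22a7 and Hpd were low there too, at 56.2 to 85.8 and 55.1 to 100.1, though their means were not near background.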
